A study of Rattus norvegicus with 8 samples.

Results

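The let-7 family guide strands are the 9 rat miRNAs rno-let-7a-5p, rno-let-7b-5p, rno-let-7c-5p, rno-let-7d-5p, rno-let-7e-5p, rno-let-7f-5p, rno-let-7g-5p, rno-let-7i-5p and rno-miR-98-5p, named below without the species prefix. They were chosen by name, as the mature strands that carry the let-7 seed, and make up 9 of the 758 miRNAs on the array. Total RNA came from the right kidney of 10-week-old males of the inbred rat strain F344/NSlc. The 4 nephrectomized rats had lost the other kidney, and the 4 sham rats had the operation without the removal, so that every kidney measured came from an operated animal. The labels place the nephrectomized kidneys at day 2 and the sham kidneys at day 1 after surgery, whereas the design text names 2 days, so surgery and time cannot be told apart if the labels are right. All 8 arrays, 1 per sample, lay on 1 slide. The 4 nephrectomized arrays lay in row 2 of the slide and the 4 sham arrays in row 1, so slide row and group cannot be told apart either.

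let-7 was first known from the worm Caenorhabditis elegans, where it times the passage from larval to adult cell fates, and its mature sequence is conserved from worm to mammal. The guide strand is loaded into an Argonaute protein and pairs through its seed with sites in messenger RNAs, which are then repressed; known targets in mammals include Ras genes, Hmga2, Lin28 and cell cycle genes. The RNA-binding protein LIN28 blocks the maturation of let-7 precursors in embryonic cells, and the let-7 level climbs as tissues differentiate, so that adult organs such as the kidney hold much of it. In mice, LIN28 and let-7 are known to act on the timing at which formation of new nephrons ends.

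The 9 mature sequences are shown because their likeness decides how far one member's signal can be told from another's. All 9 matched RefSeq's rat miRNAs (assembly GRCr8). They are written 5′ to 3′ in lower case, with the seed, bases 2 to 8, in capitals.
let-7a-5p: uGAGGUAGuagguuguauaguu
let-7b-5p: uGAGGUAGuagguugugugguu
let-7c-5p: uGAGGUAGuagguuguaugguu
let-7d-5p: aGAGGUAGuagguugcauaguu
let-7e-5p: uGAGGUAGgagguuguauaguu
let-7f-5p: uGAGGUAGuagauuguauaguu
let-7g-5p: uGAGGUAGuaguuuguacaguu
let-7i-5p: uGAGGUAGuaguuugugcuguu
miR-98-5p: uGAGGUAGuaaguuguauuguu

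All 9 members hold the same seed, and no other mature miRNA in the RefSeq rat table holds it. Of the 22 bases, 14 are the same in all members and 8 vary. Of the 36 pairs of members, 4 differ at 1 base, 10 at 2, 11 at 3, 9 at 4, 1 at 5 and 1 at 6. Counted from 1 at the 5′ end, with the let-7a-5p base first, let-7c-5p differs by A19G, let-7e-5p by U9G and let-7f-5p by G12A. let-7b-5p differs from let-7a-5p by A17G and A19G, and let-7d-5p by U1A and U16C. let-7g-5p differs by G12U and U18C, let-7i-5p by G12U, A17G, U18C and A19U, and miR-98-5p by G11A and A19U. miR-98-5p, though named outside the series of letters, is thus no farther from let-7a-5p than let-7b-5p is.

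Each member was read by 2 probes that differ by 1 base in length. The longer probe of each is shown because the array tells the members apart only by these bases; letters in capitals differ from the let-7a-5p probe when both are laid against the mature strand.
let-7a-5p probe: aactatacaacctactacct
let-7b-5p probe: aacCaCacaacctactacc
let-7c-5p probe: aacCatacaacctactacc
let-7d-5p probe: aactatGcaacctactacc
let-7e-5p probe: aactatacaacctCctacc
let-7f-5p probe: aactatacaaTctactacctc
let-7g-5p probe: aactGtacaaActactacctc
let-7i-5p probe: aacAGCacaaActactacctc
miR-98-5p probe: aacAatacaacTtactacctca

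Of the 18 probes, 12 lie 1 mismatch from the mature strand of another member, namely those of the 6 members from let-7a-5p to let-7f-5p. The probes of let-7g-5p, let-7i-5p and miR-98-5p are 2 mismatches from the nearest other member, and no probe matches another member in full. The base that differs at position 1 between let-7d-5p and let-7a-5p lies outside the probes, which leaves 1 base to separate them. How much of each member's signal came from its relatives was not tested.

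The longest probes lie in the rat genome build rn4, per the deposited files, at the following places. let-7a-5p maps to chr8:44525787-44525806 and chr17:22119781-22119800, and let-7f-5p to chr17:22120143-22120163 and chrX:41376951-41376971. let-7b-5p lies at chr7:123701215-123701232, and let-7c-5p at chr7:123700806-123700824 and chr11:16398282-16398300. let-7d-5p lies at chr17:22121911-22121928, let-7e-5p at chr1:56487152-56487169, let-7i-5p at chr7:62755367-62755386 and miR-98-5p at chrX:41377562-41377582; no position was given for let-7g-5p. A mature strand made from 2 gene copies cannot be assigned to either copy, which holds for 3 members (a, c and f). RefSeq (GRCr8) lists 12 precursor copies of the 9 members on 6 chromosomes, several of them side by side. Counted from start to start, let-7a-1 and let-7f-1 are 363 bases apart, let-7f-1 and let-7d 1765, let-7c-2 and let-7b 408, and let-7f-2 and miR-98 611. let-7f-2 and miR-98 lie within the bounds of Huwe1, which encodes a ubiquitin ligase. let-7g lies within those of Rpl29 and Wdr82, and let-7e within those of Spaca6. The remaining copies, except let-7c-2 and let-7b, also lie within other annotated genes, which are not named here.

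By signal, the let-7 guide strands ran from the brightest miRNA on the arrays to rank 61 of 758. The scaled signal is the background-subtracted brightness of a miRNA's spots after each array was set to a common 75th percentile, on a linear scale with no fixed unit. By mean scaled signal in nephrectomized and in sham kidneys, rank 1 of the 758 miRNAs fell to let-7a-5p, rank 2 to let-7f-5p, rank 3 to let-7c-5p and rank 4 to let-7b-5p, while let-7g-5p held rank 8. let-7d-5p held rank 14 in nephrectomized and 13 in sham kidneys, let-7e-5p 28 in nephrectomized and 29 in sham, let-7i-5p 33 in nephrectomized and 34 in sham, and miR-98-5p 61 in nephrectomized and 59 in sham. The 9 members summed to 33.3% ± 0.443 of the signal of all tested miRNAs in nephrectomized kidneys and to 33.1% ± 0.825 in sham kidneys (SD, n = 4 each). All member spots were well above background on all 8 arrays, and none was saturated. Within each member the longer probe was the brighter, by 1.39-fold for let-7i-5p to 3.04-fold for let-7f-5p in sham kidneys, so the signal also depends on the probe, and the order of the members by signal need not be their order by amount.

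let-7a-5p, whose sequence is that of the worm's let-7, had scaled signals of 5261, 5559, 5429 and 5555 on nephrectomized arrays 1 to 4, against 5860, 5383, 5356 and 5557 on sham arrays 1 to 4. The groups overlapped, and the highest value was that of sham array 1. On the log2 scale let-7a-5p averaged 12.41 ± 0.037 in nephrectomized and 12.43 ± 0.060 in sham kidneys (SD, n = 4 each). The difference of these log2 levels, nephrectomized minus sham, was -0.023 ± 0.042 (SE), with a 95% interval of -0.12 to 0.073 and an adjusted p of 0.791 by limma. Adjusted p-values come from limma's two-sided test with Benjamini-Hochberg adjustment over all 238 tested miRNAs, and an adjusted p under 0.05 was called. Such p-values set the group difference against the spread between these samples within a group, which limma draws in part from all tested miRNAs. In whole kidney tissue, fewer cells of a type and less RNA per cell cannot be told apart.

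let-7f-5p, known in human endothelial cells for a part in vessel growth, had scaled signals of 5204, 5203, 5423 and 5277 on the nephrectomized arrays, against 5758, 5212, 5182 and 5640 on the sham arrays. Sham arrays 1 and 4 were higher than every nephrectomized array, and sham arrays 2 and 3 lay among or below them. Its log2 difference of -0.045 ± 0.046 (SE; 95% interval -0.15 to 0.061) was the largest in size and had the lowest unadjusted p of the 9 members, 0.356 (limma), which became 0.592 after adjustment.

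let-7c-5p, which shares a host locus with miR-99a, had scaled signals of 4839, 5237, 5243 and 5293 on the nephrectomized arrays, against 5446, 5011, 4967 and 5087 on the sham arrays. Nephrectomized array 1 was the lowest of the 8 and sham array 1 the highest, while the other 3 nephrectomized arrays lay above the other 3 sham arrays. The log2 difference was 0.0070 ± 0.046 (SE; 95% interval -0.10 to 0.11; adjusted p = 0.942 by limma). It was 0.037 without nephrectomized array 1 and 0.036 without sham array 1.

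let-7b-5p, which has been reported to repress the type I receptor of TGF-beta in rat tubular cells, had scaled signals of 3843, 4252, 4186 and 4288 on the nephrectomized arrays, against 4272, 4003, 4029 and 4166 on the sham arrays. Its lowest and its highest value both came from nephrectomized arrays, 1 and 4. let-7b-5p averaged 12.01 ± 0.073 in nephrectomized and 12.01 ± 0.044 in sham kidneys on the log2 scale (SD, n = 4 each), with a difference of 0.0077 ± 0.046 (SE; 95% interval -0.099 to 0.11; adjusted p = 0.942 by limma).

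let-7g-5p departed from the other members in its order over the nephrectomized arrays. Its scaled signals were 2424, 2300, 2386 and 2302 on the nephrectomized arrays, against 2426, 2316, 2354 and 2395 on the sham arrays. Nephrectomized array 1, where 6 other members were lowest in their group, was the highest nephrectomized array for let-7g-5p. Its log2 difference was -0.012 ± 0.035 (SE; 95% interval -0.093 to 0.068; adjusted p = 0.872 by limma).

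let-7d-5p, known in human lung for repressing HMGA2, had scaled signals of 1654, 1752, 1730 and 1711 on the nephrectomized arrays, against 1759, 1650, 1638 and 1732 on the sham arrays. The highest array was a sham one and the lowest a sham one, so the nephrectomized values lay wholly inside the sham range. The log2 difference was 0.015 ± 0.039 (SE; 95% interval -0.075 to 0.10; adjusted p = 0.855 by limma).

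let-7e-5p, which lies beside miR-99b and miR-125a, had scaled signals of 888, 984, 970.0 and 973 on the nephrectomized arrays, against 1023, 960.3, 914 and 989 on the sham arrays. Nephrectomized array 1 was the lowest of the 8, and the other 3 nephrectomized arrays fell between the sham values. The log2 difference was -0.027 ± 0.051 (SE; 95% interval -0.14 to 0.090; adjusted p = 0.791 by limma).

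let-7i-5p, known in human bile duct cells for repressing the receptor TLR4, had scaled signals of 644, 648, 669 and 643 on the nephrectomized arrays, against 654, 632, 625 and 645 on the sham arrays. The highest value came from nephrectomized array 3 and the lowest from sham array 3, with the rest interleaved. The log2 difference was 0.027 ± 0.033 (SE; 95% interval -0.049 to 0.10; adjusted p = 0.679 by limma).

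miR-98-5p was the dimmest member. Its scaled signals were 154, 159, 159.9 and 159.5 on the nephrectomized arrays, against 174, 157, 154.6 and 162 on the sham arrays. Sham array 1 stood above the other 7 arrays, and the log2 difference was -0.036 ± 0.045 (SE; 95% interval -0.14 to 0.069; adjusted p = 0.690 by limma).

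**Figure D1:**
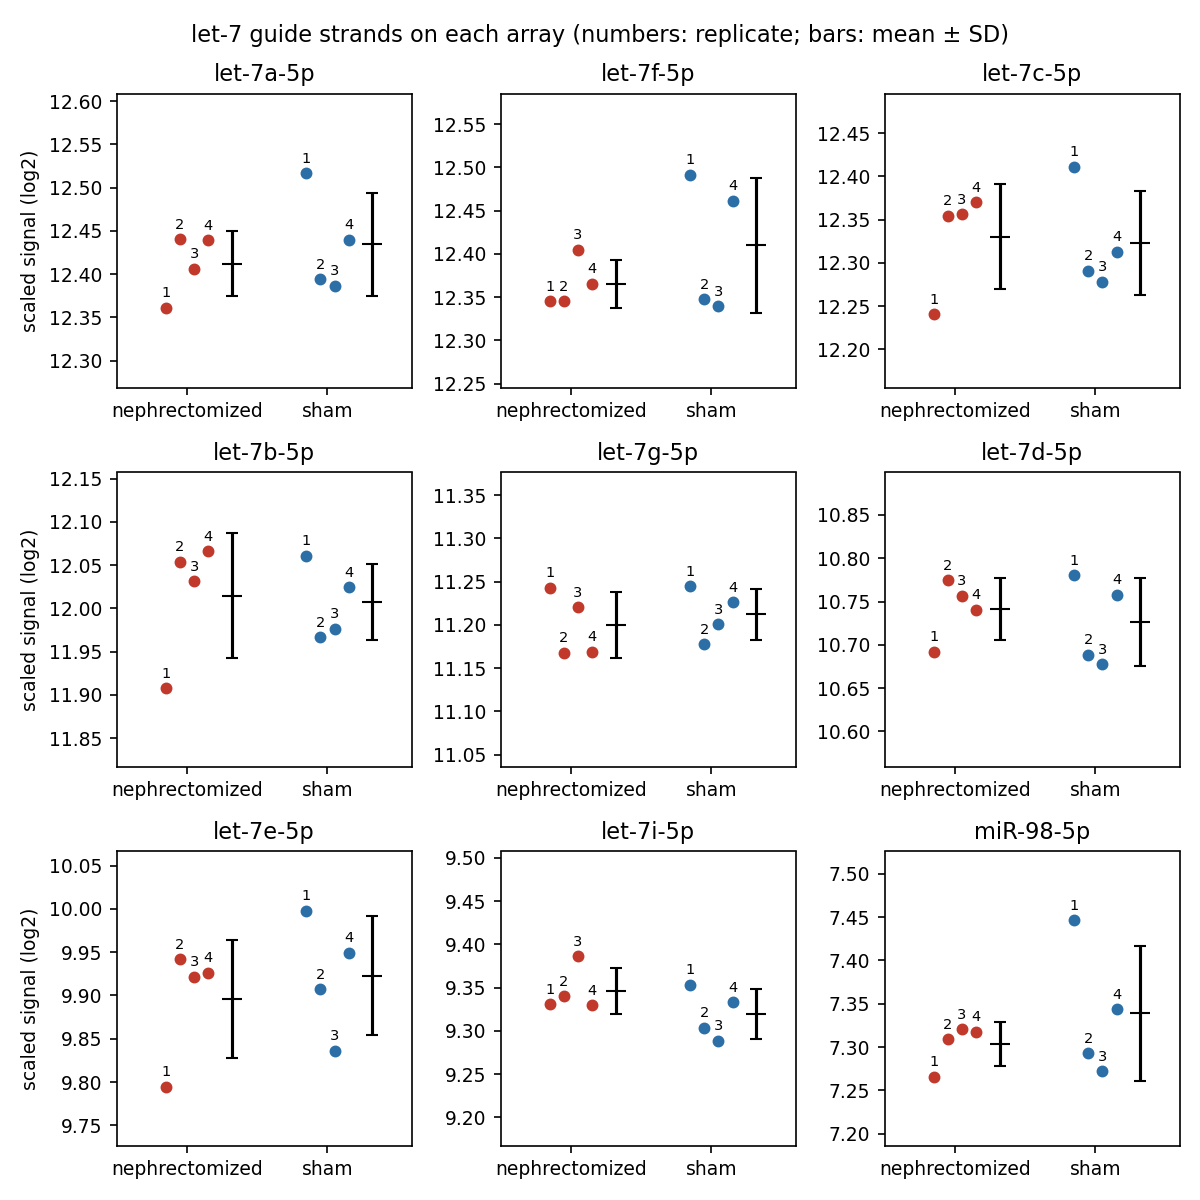
Scaled signal (log2) of each let-7 guide strand, 1 panel a member, with nephrectomized arrays on the left and sham arrays on the right; points are arrays with their replicate number, and bars are the mean ± SD (n = 4). All panels span the same log2 width, sham array 1 is the highest sham array in every panel, and the groups overlap for all 9 members.

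The members kept a fixed order by signal on the arrays except among the brightest 3. let-7a-5p was above let-7f-5p on 4 nephrectomized and 3 sham arrays, and let-7f-5p above let-7c-5p on 2 nephrectomized and 4 sham arrays. The ranges of these neighbours over the 8 arrays overlapped. Below let-7c-5p, the members b, g, d, e, i and miR-98-5p followed in this order on 8 of 8 arrays, with no overlap between neighbours.

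None of the 9 let-7 guide strands passed the test between nephrectomized and sham kidneys. The count was 0 of 9 by limma after adjustment, with 0% of the 238 tested miRNAs called, and 0 of 9 at an unadjusted p under 0.05, with 20.2% of tested miRNAs past it. By limma with trend and robust fitting the count was also 0 of 9, with 2.94% of tested miRNAs called. Without scaling 9 of 9 members were called, with 67.6% of tested miRNAs called. After normexp background correction 2 of 9 were called, let-7a-5p and let-7f-5p, with 65.5% of tested miRNAs called. The groups overlapped for all 9 members, so that 0 of 9 were separated, against 14.7% of tested miRNAs. The log2 difference was above 0 for 4 of 9 members (b, c, d and i), and for 47.5% of tested miRNAs. A p above the threshold does not show equal levels. On this scaling all 9 intervals lay within a 1.2-fold change either way, with a farthest bound of 1.11-fold. Bounds under other scalings are not given here. The limit does not hold without scaling, where the signal was 1.19-fold to 1.25-fold higher in sham kidneys. Among all tested miRNAs, 51.3% had an interval within the 1.2-fold limit. The members' median log2 difference was -0.012, beside -0.0077 for all tested miRNAs, and their median absolute log2 difference was 0.023, beside 0.084 for all tested miRNAs and 0.037 for the brightest 59. The median residual SD on the log2 scale was 0.058 for the members, 0.099 for all tested miRNAs and 0.050 for the brightest 59.

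**Figure D2:**
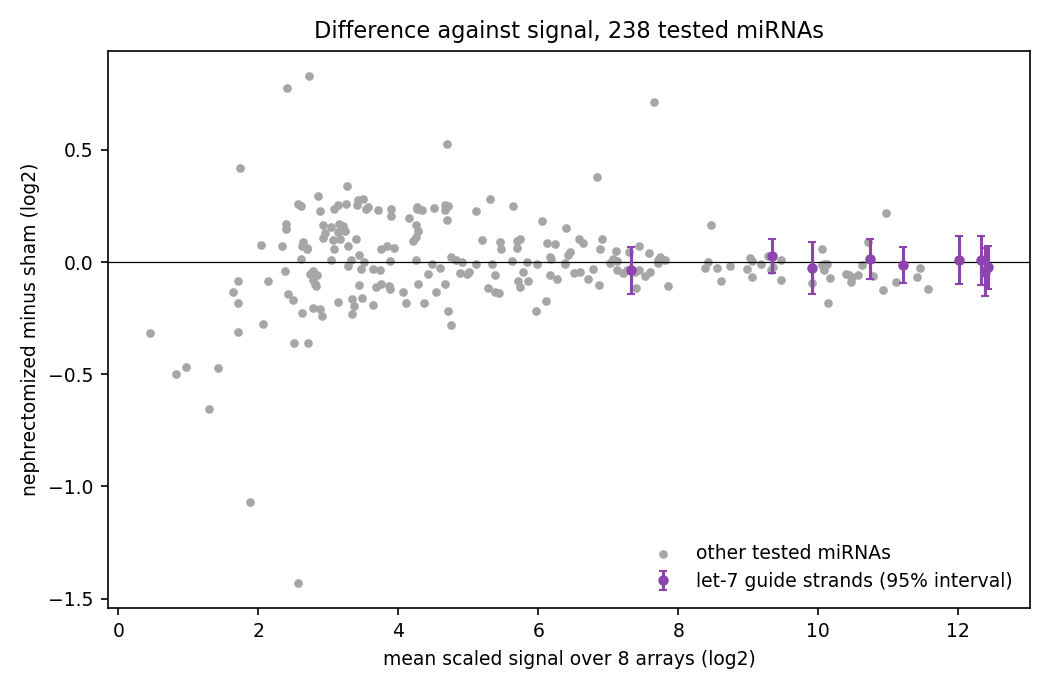
Log2 difference, nephrectomized minus sham, against the mean log2 scaled signal over 8 arrays for the 238 tested miRNAs (grey) and the let-7 guide strands (purple, bars are limma's 95% intervals). The members lie between miR-98-5p, at a mean of 7.30 in nephrectomized and 7.34 in sham kidneys, and the brightest miRNA, let-7a-5p, and all 9 intervals include 0.

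The single probes were tested as well. Of the 18 member probes, 0 were called by limma, with 0% of the 534 probes of tested miRNAs called, and 0 had an unadjusted p under 0.05, with 20.8% of probes past it. The lowest adjusted p of a member probe was 0.419. Both probes had a difference of the same sign for 7 of 9 members, and of opposite sign for let-7b-5p and let-7c-5p, the members whose differences lay nearest 0. The widest gap between the log2 differences of a member's probes was 0.037, for let-7f-5p. The coefficient of variation between the spots of a member probe, taken as the median over the 8 arrays, ran from 1.33% to 9.54% over the 18 probes, and on single arrays from 0.678% to 10.2%.

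The make-up of the family was likewise close in both groups. These shares divide a member's signal by the summed signal of the 9 members on the same array, so they do not depend on the scaling between arrays. let-7a-5p held 21.1% ± 0.254 in nephrectomized and 21.2% ± 0.138 in sham kidneys (SD, n = 4 each, as for all shares). let-7f-5p held 20.4% ± 0.451 in nephrectomized and 20.9% ± 0.400 in sham kidneys, let-7c-5p 19.9% ± 0.344 in nephrectomized and 19.7% ± 0.265 in sham kidneys, and let-7b-5p 16.0% ± 0.427 in nephrectomized and 15.8% ± 0.151 in sham kidneys. These 4 members together held 77.4% ± 0.440 in nephrectomized and 77.6% ± 0.240 in sham kidneys. let-7g-5p held 9.11% ± 0.438 in nephrectomized and 9.11% ± 0.193 in sham kidneys, and let-7d-5p 6.62% ± 0.0767 in nephrectomized and 6.50% ± 0.0578 in sham kidneys. The smallest shares were those of let-7e-5p (3.69% ± 0.0866 in nephrectomized, 3.73% ± 0.0713 in sham), let-7i-5p (2.52% ± 0.0602 in nephrectomized, 2.45% ± 0.0470 in sham) and miR-98-5p (0.611% ± 0.00455 in nephrectomized, 0.621% ± 0.0109 in sham). For each of the 9 shares the groups overlapped.

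**Figure D3:**
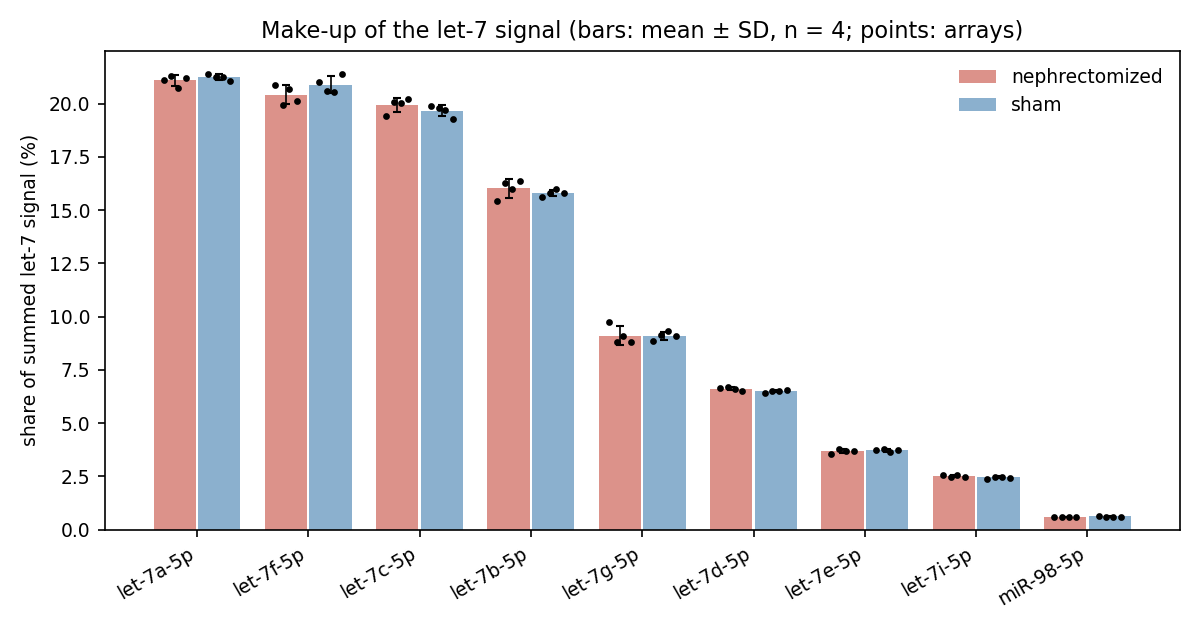
Share of each let-7 guide strand in the summed signal of the 9 members, in percent, on each array (points), with the group mean ± SD (bars, n = 4), for nephrectomized (red) and sham (blue) kidneys. let-7a-5p holds 21.1% in nephrectomized and 21.2% in sham kidneys, and no member's groups separate.

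Within a group, most members moved together from array to array. The mean of the 9 log2 levels, set against its own mean over the 8 arrays, was -0.052, 0.0084, 0.017 and 0.0080 on nephrectomized arrays 1 to 4, against 0.072, -0.031, -0.044 and 0.022 on sham arrays 1 to 4. All 9 members were highest among the sham arrays on sham array 1, and all 9 had sham arrays 2 and 3 as their lowest sham arrays. Among the nephrectomized arrays 6 of 9 members were lowest on array 1. miR-30e-3p and miR-151-5p, which are outside the family, were also highest among the sham arrays on sham array 1. Both were lowest among the nephrectomized arrays on array 1. They are named because their profiles lay nearest to the mean let-7 profile, so this likeness follows from the choice. The share of all tested miRNAs with these patterns was not counted. Measured against the mean of the other 8 members on the same array, the SD of let-7a-5p in sham kidneys was 0.012 on the log2 scale, beside 0.060 for its level, and that of miR-98-5p in nephrectomized kidneys 0.0087, beside 0.026. By this measure the SD was smaller than that of the level for 6 of 9 members in nephrectomized and 8 of 9 in sham kidneys. For let-7g-5p it was larger in both groups, 0.072 beside 0.038 in nephrectomized and 0.033 beside 0.029 in sham kidneys. The members share the scaling of their array, and the part of that in their common movement was not tested.

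**Figure D4:**
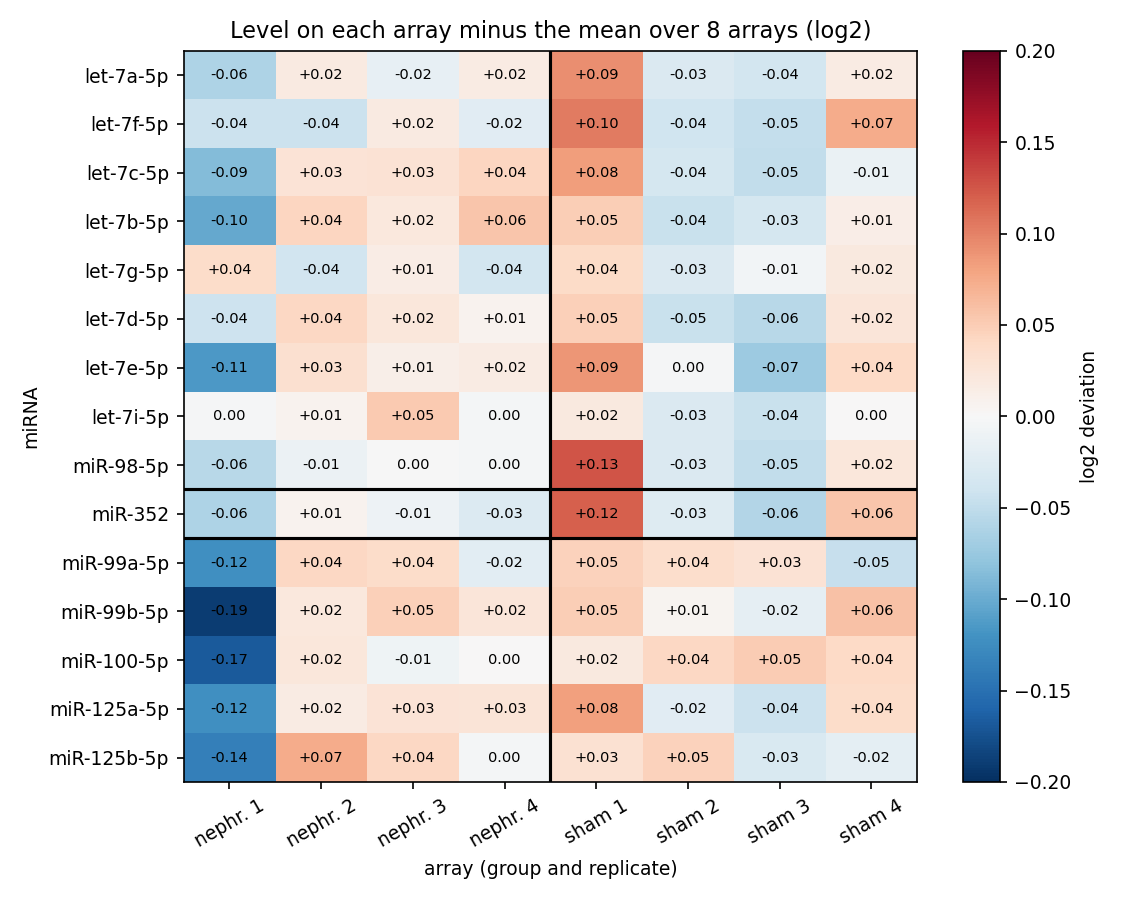
Deviation (log2) of each miRNA from its own mean over the 8 arrays, nephrectomized arrays on the left and sham arrays on the right, for the 9 let-7 guide strands (top), miR-352 and the 5 cluster partners (bottom). All 9 members lie above their means on sham array 1, and on nephrectomized array 1 let-7g-5p lies above its mean while the 5 partners lie at their lowest.

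The sign of the differences depended on how arrays were scaled. Before scaling, all 9 of 9 members were dimmer on every nephrectomized array than on any sham array, as were 52.5% of tested miRNAs, and the unscaled groups did not overlap for 52.9% of tested miRNAs. let-7a-5p, for example, had unscaled signals of 4935, 4616, 4772 and 5342 on the nephrectomized arrays, against 5962, 5663, 6490 and 6167 on the sham arrays. The unscaled log2 differences ran from -0.33 for let-7f-5p to -0.26 for let-7i-5p, and 9 of 9 passed the threshold by limma, as did 67.6% of tested miRNAs. The whole nephrectomized arrays were dimmer by a like amount: the log2 75th percentile averaged 7.40 ± 0.095 on nephrectomized and 7.68 ± 0.11 on sham arrays (SD, n = 4 each), a difference of -0.28. RNAs added at labelling averaged 11.66 ± 0.19 on nephrectomized and 12.02 ± 0.034 on sham arrays on the log2 scale, a difference of -0.36, and those added at hybridization differed by -0.033. The number of detected miRNAs was 224 to 230 on nephrectomized and 242 to 253 on sham arrays. The part of labelling or of slide row in these differences was not tested. When the labelling spike-ins set the scale, 9 of 9 members had a difference above 0 and 0 of 9 passed the threshold, with 0.42% of tested miRNAs called.

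**Figure D5:**
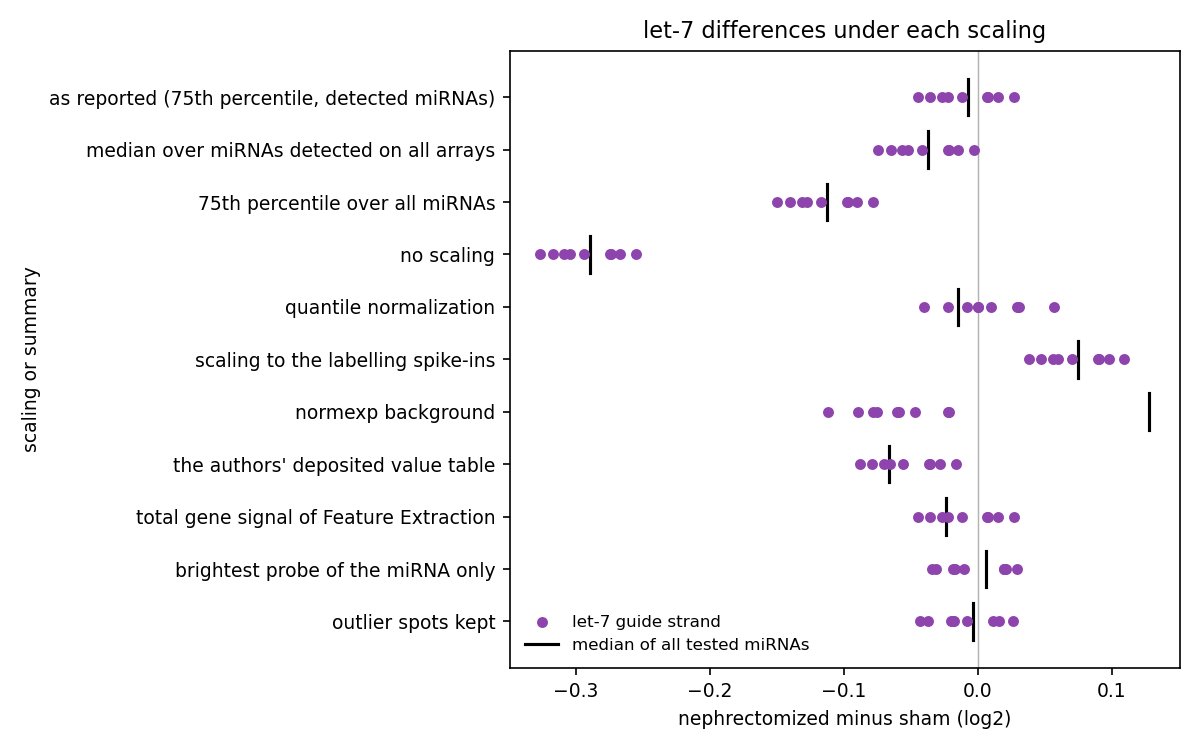
Log2 difference, nephrectomized minus sham, of each let-7 guide strand (purple points) and the median of all tested miRNAs (black ticks) under each way of scaling or summarising the arrays. Without scaling the differences lie between -0.33 and -0.26, with the labelling spike-ins all lie above 0, and with the 75th percentile over miRNAs detected on all arrays they lie around 0.

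Some let-7 copies lie in clusters with members of the miR-99/100 and miR-125 families, here called partners. miR-100 lies 6912 bases from let-7a-2 on RefSeq's GRCr8, miR-125b-2 44461 from let-7c-1, and miR-99b and miR-125a lie 173 and 446 bases from let-7e, counted from start to start. The 5 partner guide strands, miR-99a-5p, miR-99b-5p, miR-100-5p, miR-125a-5p and miR-125b-5p, were all tested. By limma 0 of 5 passed the threshold, with 0% of tested miRNAs called. At an unadjusted p under 0.05 the count was also 0 of 5, with 20.2% of tested miRNAs past it. The differences of all 5 were below 0, whereas 47.5% of tested miRNAs had a difference above 0. Their median log2 difference was -0.033, beside -0.0077 for all tested miRNAs. miR-100-5p had log2 levels of 6.10, 6.29, 6.26 and 6.27 on the nephrectomized arrays, against 6.29, 6.31, 6.32 and 6.31 on the sham arrays, a difference of -0.076 ± 0.048 (SE). miR-125b-5p had log2 levels of 9.92, 10.13, 10.10 and 10.05 on the nephrectomized arrays, against 10.09, 10.11, 10.03 and 10.04 on the sham arrays. All 5 partners were lowest on nephrectomized array 1, the array on which 6 of the 9 let-7 guide strands were lowest in their group. How far the partners' differences rest on that array was not tested. The other 4 partners had log2 differences of -0.049 ± 0.058 for miR-99b-5p, -0.033 ± 0.047 for miR-99a-5p, -0.026 ± 0.049 for miR-125a-5p and -0.014 ± 0.052 for miR-125b-5p.

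The passenger strands, the opposite arms of the let-7 hairpins that are mostly degraded, were far dimmer. Of 12 passenger strands listed, 10 are on the array; 3 were detected on all 8 arrays and tested, and 7 were detected on none. By limma 0 of 3 passed the threshold and 2 had an unadjusted p under 0.05, with 20.2% of tested miRNAs past it. let-7b-3p had log2 levels of 4.52, 4.78, 4.66 and 4.53 on the nephrectomized arrays, against 4.45, 4.46, 4.25 and 4.38 on the sham arrays. The groups did not overlap, as for 14.7% of tested miRNAs, and the log2 difference was 0.24 ± 0.074 (SE; adjusted p = 0.130 by limma). let-7d-3p had levels of 3.06, 3.39, 3.44 and 3.20 on the nephrectomized arrays, against 3.05, 3.06, 2.88 and 3.09 on the sham arrays. Its nephrectomized array 1 lay within the sham range, and the log2 difference was 0.26 ± 0.092 (SE; adjusted p = 0.155 by limma). let-7a-1-3p had a log2 difference of 0.088 ± 0.078 (SE). The sign of these differences also depended on the scaling between arrays. The mean unscaled signal of let-7b-3p was 22.2 in nephrectomized and 22.9 in sham kidneys. That of let-7d-3p was 8.73 in nephrectomized and 8.87 in sham kidneys, and that of let-7a-1-3p 5.80 in nephrectomized and 6.63 in sham kidneys. The unscaled groups overlapped for all 3. Whether passenger and guide strands of a hairpin differed in their change was not tested.

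Among the tested miRNAs outside the family, the profiles nearest to the mean let-7 profile over the 8 arrays were those of miR-30e-3p, miR-151-5p, miR-361-5p, miR-28-5p and miR-352. Their root mean square distances, after each profile was centred on its own mean log2 level, were 0.0192, 0.0192, 0.0206, 0.0228 and 0.0265, against a median of 0.107 over 229 miRNAs. The members' own distances, to a mean that each member is part of, ran from 0.0155 for let-7a-5p to 0.0431 for let-7g-5p. The 5 were picked as the nearest of the 229, so their place within that range follows from the choice.

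Markers of the tissue were present. All 7 kidney-enriched miRNAs listed, among them miR-192-5p, were detected on all 8 arrays, while the liver's miR-122-5p and the 3 listed miRNAs of striated muscle (miR-1-3p, miR-133a-3p and miR-206-3p) were detected on 0 of 8. Relatives of these by name that were not listed, miR-1-5p, miR-1b and miR-133b-3p, were detected on all 8 arrays. Their mean scaled signals were low, from 9.04 for miR-133b-3p in sham to 19.1 for miR-1-5p in nephrectomized kidneys. The summed scaled signal of the 6 leukocyte miRNAs was 617 to 675 on nephrectomized and 668 to 716 on sham arrays, and that of 3 red blood cell miRNAs 48.3 to 116 on nephrectomized and 45.9 to 94.98 on sham arrays. Most of the leukocyte sum was miR-146a-5p (mean 379 in nephrectomized, 401 in sham), and miR-142-5p was detected on 1 sham array only. The red blood cell sum was nearly all miR-451-5p (mean 74.7 in nephrectomized, 66.5 in sham). miR-144-3p was detected on 0 of 8 arrays and miR-486 on 1 sham array only. The endothelial miRNAs summed to 1136 to 1205 on nephrectomized and 1203 to 1286 on sham arrays, and those of smooth muscle and fibroblasts to 1155 to 1304 on nephrectomized and 1205 to 1272 on sham arrays. Of the neuronal miRNAs, miR-124-3p was detected on 0 of 8 arrays and miR-9a-5p on all 8. These ranges overlap between the groups, and their part in the let-7 values was not tested.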

How the data were processed

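MicroRNA was measured on 8 one-colour (Cy3) Agilent rat arrays, 4 nephrectomized and 4 sham, grouped by the sample titles; nothing in the labels beyond the design text's n says that the arrays are separate rats. The deposited scanner tables hold intensity values of spots, written by Agilent Feature Extraction 12.0.3.1 and background-subtracted per the file headers. Among the deposited columns are other ones, coded 0 or 1, that flag detection, outliers and saturation. The authors' deposited value table holds log2 values, centred per miRNA. For the 9 members they differed from the centred log2 total signal of the scanner tables by a nearly constant amount per array (spread at most 0.049), which gives the direction; the rule behind that amount is unknown. Its column medians ran from 0.052 to 0.17 on nephrectomized and from -0.25 to -0.052 on sham arrays, and it served as an alternative.

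The 758 miRNAs were read by 1806 probes in 12128 spots per array. The 715 control spots were left out, as were outlier spots (8.10% to 9.01% per array). Spots were averaged per probe and probes per miRNA, scaled to the 75th percentile of the 214 miRNAs that every array detected, set to a floor of 1 and put on the log2 scale. The 238 miRNAs detected on at least 4 arrays were tested, 26 detected on 1 to 3 and 494 on none were not; 6 values in 5 tested miRNAs were at the floor, none of a member. Differences, nephrectomized minus sham, were tested with limma 3.58.1 (lmFit, eBayes) in R 4.3.3, as two-sided tests, adjusted by Benjamini-Hochberg and called under 0.05. The number of arrays limits the precision. The fit was tested on simulated data.

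The members and lists were chosen with earlier results of these data known. The miRNAs named are the 9 members, the 5 other miRNAs with the nearest profile, the tested miRNAs of the lists of cluster partners and passenger strands, and cell type markers. Alternatives changed the scaling, background correction, filter, summary of probes, fit and arrays used. The replicate numbers, which are also the slide columns of the arrays, were not used to pair the arrays in the reported fit. The correlations of same-numbered arrays' deviations were 0.042, -0.091, 0.28 and -0.24. So few values cannot settle whether the numbers pair the arrays. Positions are those of the deposited files (rn4) and RefSeq (GRCr8), and the builds were not mixed.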

Additional observations from a re-analysis of the deposited data

Results flagged for a closer look

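let-7c-5p had a log2 level of 12.24 on nephrectomized array 1, below the other 3 nephrectomized arrays at 12.35 to 12.37, a gap that was large for the range of its group. let-7e-5p had a log2 level of 9.79 on the same array, below the other 3 nephrectomized arrays at 9.92 to 9.94. These were 2 of 18 groups searched, and chance marks about 1 group in 20 where groups are independent. Here the members share their arrays and both flags fall on nephrectomized array 1, so the count cannot be set against that rate. Without that array the log2 difference was 0.0072 for let-7e-5p and 0.037 for let-7c-5p.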

How the results depend on the processing

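The members' calls held except in 2 settings. Without scaling all 9 were called, with log2 differences of -0.30 (let-7a-5p), -0.27 (b, c and d), -0.31 (e), -0.33 (f), -0.29 (g), -0.26 (i) and -0.32 (miR-98-5p), beside a median of -0.29 over all tested miRNAs. With normexp background correction 2 were called, let-7a-5p at -0.090 (adjusted p = 0.0490) and let-7f-5p at -0.11 (adjusted p = 0.0248), against a median of 0.13; the cause was not tested. All other signs that turned belonged to uncalled values. The signs of the members b, c, d and i turned with the 75th percentile over all miRNAs (-0.097, -0.098, -0.090 and -0.078; median of all -0.11), the median of detected miRNAs (-0.022, -0.023, -0.015 and -0.0030), normexp (-0.059, -0.060, -0.047 and -0.022) and the authors' table (-0.036, -0.036, -0.028 and -0.017). Labelling spike-ins turned let-7a-5p (0.060), let-7e-5p (0.056), let-7f-5p (0.038), let-7g-5p (0.070) and miR-98-5p (0.047), with a median of 0.075. Quantile normalization turned let-7a-5p (0.0098), let-7d-5p (-0.0081) and let-7e-5p (0.057), and keeping outlier spots turned let-7c-5p (-0.0083).

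Leaving out each array in turn gave -0.038 to 0.0049 for let-7a-5p, -0.0093 to 0.043 for let-7b-5p, -0.0079 to 0.037 for let-7c-5p, -0.0012 to 0.033 for let-7d-5p, -0.055 to 0.0072 for let-7e-5p, -0.068 to -0.018 for let-7f-5p, -0.027 to -0.0015 for let-7g-5p, 0.014 to 0.038 for let-7i-5p and -0.058 to 0.00027 for miR-98-5p, with 0 of 9 called each time. let-7a-5p and miR-98-5p turned without sham array 1 and let-7e-5p without nephrectomized array 1; let-7d-5p turned without sham array 3, and members b and c without nephrectomized array 2 or 4 or sham array 2 or 3 (c also without nephrectomized array 3).

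The count over all tested miRNAs, 0, was 19 with the 75th percentile over all miRNAs, 161 without scaling, 1 with quantile normalization, 1 with spike-ins, 156 with normexp, 5 in the authors' table, 7 with total gene signal, 11 with the brightest probe, 1 among miRNAs detected on all 8 arrays, 7 with trend and robust fitting, and 0 to 5 with an array left out (1 without nephrectomized array 1, 5 without nephrectomized array 3). With the replicate number, which is also the slide column, as a block, 0 were called, 0 of them members. The share of miR-98-5p differed by 0.031 percentage points with normexp, beside -0.010. The dimmest member was well above background on every array, so precision rests on the 4 arrays per group.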

Other observations

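miR-352 is the only one of the other 749 miRNAs on the array with a probe within 2 mismatches of a let-7 guide strand: its longer probe, Tactatgcaacctactac, lies 1 mismatch from let-7d-5p, at the base in capitals. It was chosen for naming by its profile, and the share of its signal that comes from let-7d-5p was not tested. Its log2 levels were 6.53, 6.60, 6.58 and 6.56 on the nephrectomized arrays, against 6.71, 6.57, 6.53 and 6.65 on the sham arrays. The highest array was sham array 1, as for 7 of the 9 let-7 guide strands, let-7d-5p among them. Because miR-352 was chosen by its nearness to the mean let-7 profile, this likeness follows from the choice. The log2 difference of miR-352 was -0.045 ± 0.047 (SE, adjusted p = 0.592 by limma), beside 0.015 for let-7d-5p.

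The array also carries miR-3596a to miR-3596d, whose sequences are complementary to let-7a-5p, let-7d-5p, let-7e-5p and let-7f-5p and which lie on the opposite strand of the same genes. They were detected on 0 of 8 arrays, although the let-7 strands opposite them were detected on all 8.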
